A study of Mus musculus with 6 samples.

Results

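Transcripts of 10 AP-1 and immediate early factors were followed in RNA from biliary epithelial cells of mouse liver, which line the intrahepatic ducts. Members were the rows of the table whose symbol was Fos, Fosb, Fosl1, Fosl2, Jun, Junb, Jund, Atf3, Egr1 or Ier2, out of 25302 rows in all. All 10 passed a filter of a mean of at least 10 normalized reads, as did 17153 rows. The 3 samples labelled Control were Sox9fl/fl, and the 3 labelled Sox9cKO were Sox9fl/fl:AlbCre+/-. Both groups thus had loxP-flanked Sox9, a gene for a transcription factor of the duct lineage, and Sox9cKO alone had Cre, expressed from the albumin promoter, which is active in the liver lineage. The presence of Cre and the loss of Sox9 cannot be told apart here. Age and the way the cells were isolated are not given in the sources used here. The labels do not say whether samples of a group came from separate mice, so p-values measure the spread between these samples, which may be technical.

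Immediate early genes are transcribed within minutes of a stimulus, without new protein synthesis, when kinases act on transcription factors already present in the cell. Fos proteins pair with Jun proteins through a leucine zipper, and the pair, called AP-1, binds the element TGANTCA in target genes. In liver, this response is known to follow partial hepatectomy, injury and the enzymatic release of cells from tissue.

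Libraries held between 11883496 and 16191990 reads assigned to genes, and members had between 1227 and 58244 reads in a sample. Unless another scale is named, values are normalized reads, meaning the reads of a gene over the sample's size factor. Sox9, the targeted gene, gave 6211, 6043 and 6293 in Control 1, 2 and 3 against 3363, 3165 and 3339.7 in Sox9cKO 1, 2 and 3. Each of 8 biliary markers was present in every sample, with Epcam between 5501 and 8249. Other cells were present too: 9 endothelial genes summed to 10254, 31953 and 1459 in Control and 25054, 32552 and 5292 in Sox9cKO. That sum was lowest in the samples numbered 3 and highest in those numbered 2, in both groups.

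Promoter sequences are shown for Fos, Fosb and Atf3, whose groups did not overlap, and for Fosl2, whose groups did. Each is the 250 bases before the RefSeq start site in build GRCm38.p6, read 5′ to 3′ on the strand of the gene: chr12:85473640-85473889 (plus strand) for Fos, chr7:19310046-19310295 (minus strand) for Fosb, chr1:191183334-191183583 (minus strand) for Atf3 and chr5:32136222-32136471 (plus strand) for Fosl2. Capitals mark TGACG, which is part of the cAMP response element (CGTCA where it is on the other strand), the TATA motif TATAAA and the Egr element GCGGGGGCG.
Fos: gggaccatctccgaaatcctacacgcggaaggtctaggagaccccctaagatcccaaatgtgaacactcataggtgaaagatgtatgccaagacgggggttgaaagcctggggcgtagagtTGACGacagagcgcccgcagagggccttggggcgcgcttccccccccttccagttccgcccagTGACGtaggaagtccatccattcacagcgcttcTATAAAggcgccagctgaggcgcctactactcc
Fosb: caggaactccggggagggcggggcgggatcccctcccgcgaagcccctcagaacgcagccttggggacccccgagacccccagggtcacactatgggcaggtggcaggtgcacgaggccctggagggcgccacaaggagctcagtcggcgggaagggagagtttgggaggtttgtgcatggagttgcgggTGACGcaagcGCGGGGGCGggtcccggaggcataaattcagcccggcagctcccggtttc
Atf3: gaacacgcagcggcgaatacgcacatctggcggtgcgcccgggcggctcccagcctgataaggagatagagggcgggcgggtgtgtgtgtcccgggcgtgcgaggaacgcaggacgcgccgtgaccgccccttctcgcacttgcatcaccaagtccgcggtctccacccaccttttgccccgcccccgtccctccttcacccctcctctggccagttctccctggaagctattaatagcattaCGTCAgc
Fosl2: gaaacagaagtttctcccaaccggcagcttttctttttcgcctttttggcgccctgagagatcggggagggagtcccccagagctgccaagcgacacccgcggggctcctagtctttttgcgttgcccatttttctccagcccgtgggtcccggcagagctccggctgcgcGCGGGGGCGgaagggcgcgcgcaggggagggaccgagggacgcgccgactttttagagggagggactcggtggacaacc

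Searches covered both strands of the 250 bases before and 50 bases after the start of 7 members. The windows of Fos, Fosb, Junb and Atf3 held TGACG, as did 20.8% of all 32851 windows. This motif was searched after the sequences had been seen. In Fos it occurred 2 times, and 61 bases separated the nearer copy from the start. The windows of Fosb and Fosl2 held the Egr element, against 2.91% of all windows. TATAAA lay 27 bases before the start in Fos and after the start in Junb, and was in 13.6% of all windows. No window of Fos, Fosb, Fosl2, Jun, Junb, Jund or Atf3 held the full cAMP response element TGACGTCA (1.79% of all windows, and a match to it is also a match to TGACG), the AP-1 element TGANTCA (7.81%), the Ets core CCGGAA (14.9%) or the CArG box, which serum response factor binds (1.63%). A match is a description and not a binding site. Fosl1, Egr1 and Ier2 were not searched.

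Atf3, Fosb, Egr1 and Fos were lower in all 3 Sox9cKO samples than in any Control sample, with means between 49.2% and 60.6% of Control. Of these, Atf3 fell past the threshold of limma's test across all genes, an adjusted p under 0.05, and Fosb and Egr1 passed it with the replicate number as a block. Jun, Ier2, Junb and Jund had means between 70.2% and 81.9% of Control, with groups that overlapped. Fosl1 and Fosl2 had means of 105% and 120.4% of Control, also with overlap. The members' median log2 fold change was -0.49, beside 0.036 over all genes tested.

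With limma, 1 of the 10 members was called, in the lower direction, against 2.97% of all genes called in either direction, 0.939% called lower and 2.03% called higher. With the replicate block 3 were called, all lower, against 8.05% of all genes in either direction, 2.99% lower and 5.06% higher. With edgeR 1 was called lower (1.04% of all genes), with edgeR and the block 3 (2.89%), and with DESeq2 4 (2.87%). An unadjusted p under 0.05 was reached by 6 members, all lower, against 17.8% of all genes in either direction and 7.74% lower. Groups did not overlap in 4 members, all lower, against 24.2% of all genes in either direction, 10.8% lower and 13.4% higher.

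**Figure D1:**
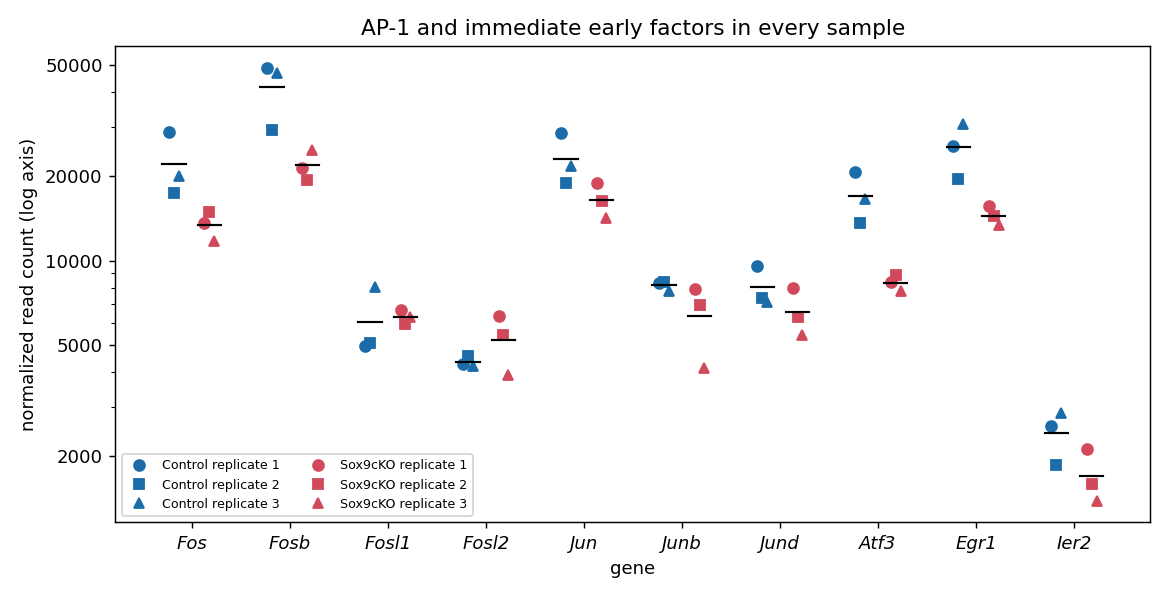
Normalized reads (log axis) of each member in the 3 Control (blue) and 3 Sox9cKO (red) samples, with the replicate number as the symbol and the group mean as a black line. Fos, Fosb, Atf3 and Egr1 have every Sox9cKO point under every Control point, while the points of the other members overlap between groups.

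Fos encodes c-Fos, the founding partner of Jun in AP-1. Control 1, 2 and 3 had 28861, 17512 and 20126 normalized reads, against 13667, 14929.8 and 11720.5 in Sox9cKO 1, 2 and 3. The groups did not overlap, and the samples numbered 2 were the closest of the same-numbered pairs. The log2 fold change of -0.70 (SE 0.20) did not pass the threshold, with an adjusted p of 0.133 in limma and 0.0547 with the block. DESeq2 on the recovered reads called it (adjusted p 0.0112).

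Fosb encodes FosB, and by splicing also a short, stable form that a count per gene does not separate. It was the most abundant member by reads, with 48959, 29343 and 46924 in Control and 21491, 19357 and 24786 in Sox9cKO. Control 2 was the lowest Control sample and still lay above all Sox9cKO samples. The mean went from 41742 ± 10786 to 21878 ± 2735 (SD, n = 3), a log2 fold change of -0.90 (SE 0.22). In limma the adjusted p was 0.0857, with the block 0.0138, and without Control 2 0.0229.

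Fosl1 encodes Fra-1, a Fos relative without a transactivation domain that builds up later in a response. Its values were 4964, 5076 and 8031 in Control and 6684, 5921 and 6311 in Sox9cKO. Control 3 was the highest of all samples and Control 1 and 2 were the lowest. The log2 fold change was 0.10, with a 95% interval of -0.36 to 0.56 (limma, adjusted p 0.839), and it turned to -0.0105 after quantile normalization.

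Fosl2 encodes Fra-2, the other late Fos relative. It gave 4265, 4559.8 and 4203 in Control and 6349, 5442 and 3889.8 in Sox9cKO. The Control samples were close together, while Sox9cKO 1 and 2 lay above them and Sox9cKO 3 below. The 95% interval of its log2 fold change of 0.24 was -0.19 to 0.67 (limma, adjusted p 0.560).

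The make-up of the Fos family was compared per kilobase of exon, to adjust for the length of the genes. This length joined all annotated exons of a gene: 2352 bases for Fos, 6243 for Fosb, 2033 for Fosl1 and 9680 for Fosl2. Where the transcripts present are shorter than that, the value of the gene is understated, so the shares are approximate. Fosl1 and Fosl2 together took 12.5%, 19.6% and 21.4% of the family's normalized reads per kilobase in Control and 29.9%, 26.9% and 28.1% in Sox9cKO. Their mean share was 17.9% ± 4.71 in Control and 28.3% ± 1.51 in Sox9cKO (SD, n = 3), without overlap. Most of it was Fosl1, with 15.5% ± 4.44 and 24.1% ± 1.37. The share of Fosb was 34.0% ± 2.82 in Control and 27.3% ± 4.08 in Sox9cKO, and that of Fos was 48.2% ± 5.85 and 44.4% ± 4.57, both with overlap. Summed per kilobase, the family stood at 22996, 15114 and 20458 in Control and 13197, 12923 and 12459.7 in Sox9cKO. Shares sum to a fixed total and repeat the values of the members on another scale, so no test was run on them.

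**Figure D2:**
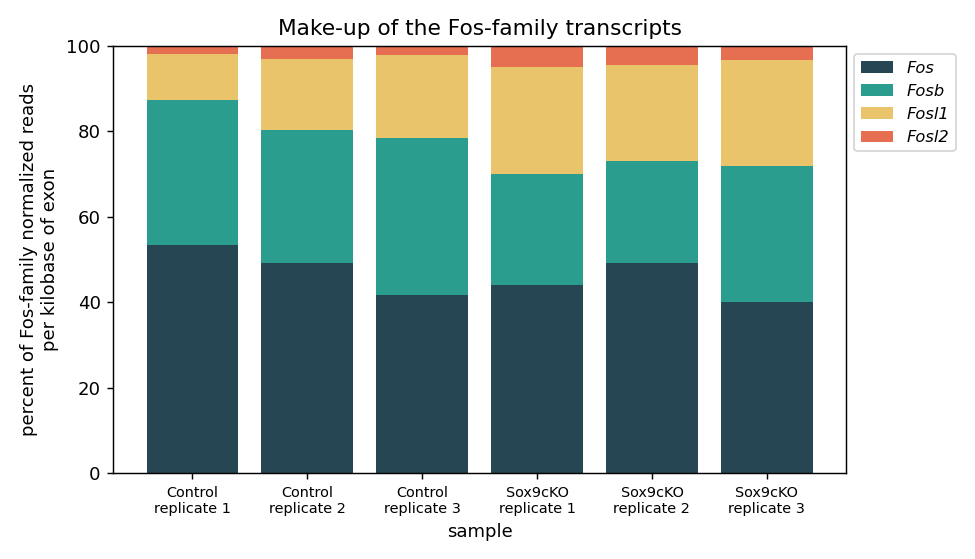
Percent of Fos-family normalized reads per kilobase of exon taken by Fos, Fosb, Fosl1 and Fosl2, with 1 stacked bar for each of the 6 samples. Fosl1 and Fosl2 together hold between 12.5% and 21.4% of the bar in Control and between 26.9% and 29.9% in Sox9cKO.

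Jun encodes c-Jun, the target of the JNK kinases, whose protein can also pair with itself. Control samples had 28567, 18879.8 and 21735 and Sox9cKO samples 18903, 16362 and 14236. Sox9cKO 1 lay just above Control 2, and all other Sox9cKO samples were below all Control samples. The log2 fold change was -0.47 (SE 0.19), with an adjusted p of 0.248 in limma.

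Junb encodes JunB, a weaker activator that can hold back c-Jun. It stood at 8339, 8378 and 7812 in Control and at 7941, 6917 and 4129 in Sox9cKO. Sox9cKO 1 lay within the Control range and Sox9cKO 3 well below the rest. The 95% interval of the log2 fold change of -0.42 was -0.97 to 0.13 (limma, adjusted p 0.407), and without Sox9cKO 3 the change was -0.14.

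Jund encodes JunD, which resting cells hold in fairly steady amounts. Its values of 9573, 7338 and 7144 in Control and 7986, 6292 and 5427 in Sox9cKO overlapped. The log2 fold change was -0.29, with a 95% interval of -0.72 to 0.13 (limma, adjusted p 0.462). Within the Jun family, per kilobase, Jun took 46.1% ± 3.34 in Control and 44.0% ± 2.65 in Sox9cKO, Junb 23.1% ± 3.16 and 22.8% ± 3.46, and Jund 30.8% ± 1.08 and 33.2% ± 1.36 (SD, n = 3).

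Atf3 encodes a stress-induced leucine zipper factor that pairs with Jun proteins and often represses transcription. It had 20817, 13615 and 16550.1 normalized reads in Control and 8417, 8857 and 7789 in Sox9cKO. The Sox9cKO samples were close together and all well below the lowest Control sample, Control 2. The mean fell from 16994 ± 3622 to 8354 ± 537 (SD, n = 3), a log2 fold change of -1.005 (SE 0.17), and the adjusted p was 0.0263 in limma, 0.0110 with the block and 0.0239 in edgeR. The limma call was lost without Control 1 (adjusted p 0.0783), Control 3 (0.0968), Sox9cKO 1 (0.0727), Sox9cKO 2 (0.0655) or Sox9cKO 3 (0.0863), and without the intensity trend (0.0674).

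Egr1 encodes a zinc finger factor whose gene is induced through serum response factor and its Ets partners. Control samples read 25762, 19567 and 30838 and Sox9cKO samples 15615, 14402 and 13408. The groups did not overlap, with Control 2 again the lowest of its group. The mean went from 25389 ± 5645 to 14475 ± 1105 (SD, n = 3), a log2 fold change of -0.79 (SE 0.18). In limma the adjusted p was 0.0725, with the block 0.0312, and without Control 2 0.0300.

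Ier2 encodes a small nuclear protein and is induced together with Fos and Jun. It was the least abundant member by reads, with 2575, 1858 and 2846 in Control and 2124, 1594 and 1389 in Sox9cKO. Sox9cKO 1 lay above Control 2, so the groups overlapped. The log2 fold change was -0.51 (SE 0.21), with an adjusted p of 0.272 in limma.

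Within the same-numbered pairs, 8 members (all but Fosl1 and Fosl2) were lower in Sox9cKO in all 3 pairs, as were 21.8% of all genes tested, while 26.7% of genes were higher in all 3 and no member was. Pair 2 had the smallest differences of Fos, Fosb, Jun, Jund, Atf3, Egr1 and Ier2. In that pair Atf3 stood at 65.1% of its Control sample, Fosb at 66.0%, Egr1 at 73.6% and Fos at 85.3%. In pair 1 these were 40.4%, 43.9%, 60.6% and 47.4%, and in pair 3 47.1%, 52.8%, 43.5% and 58.2%. Fosl1 and Fosl2 were higher in pairs 1 and 2 and lower in pair 3. Pair 2 was also the pair with nearly equal endothelial sums, and in pairs 1 and 3 the Sox9cKO sample had the higher sum. The part of endothelial RNA in the members' differences was not tested.

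**Figure D3:**
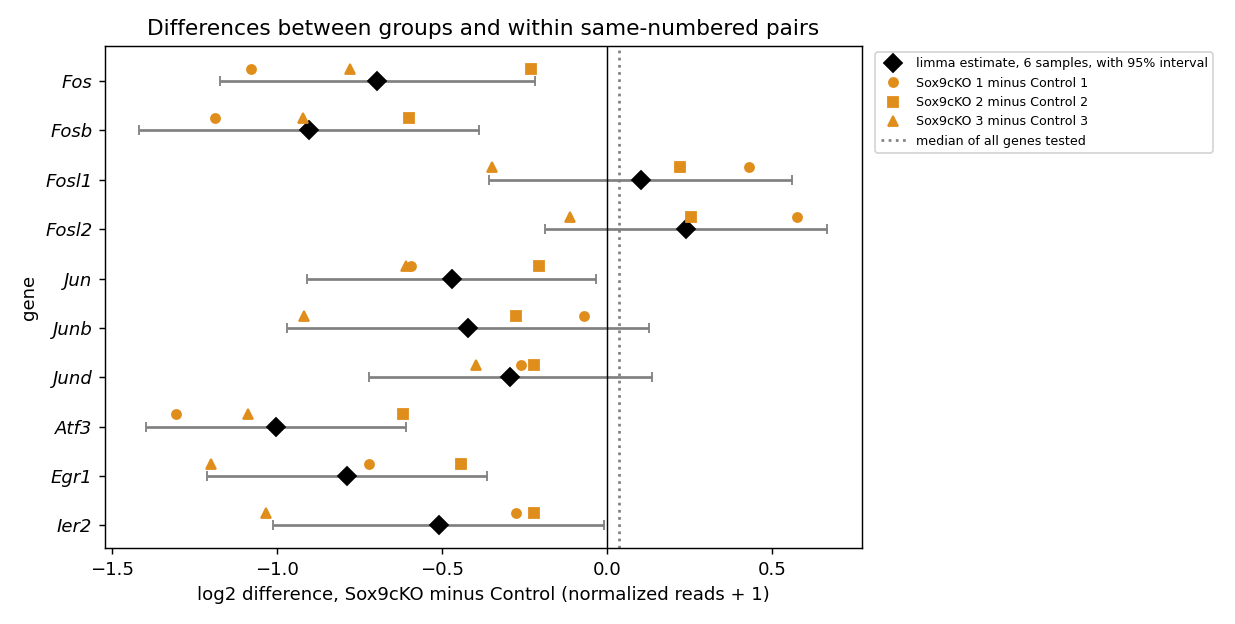
Log2 difference of Sox9cKO minus Control for each member: the limma estimate over 6 samples with its 95% interval (black diamond and grey bar), the difference within each same-numbered pair (orange symbols) and the median of all genes tested (dotted line, 0.036). The intervals of Fos, Fosb, Jun, Atf3, Egr1 and Ier2, which are not adjusted over genes, lie below 0, and the orange symbols of Fosl1 and Fosl2 lie on either side of 0.

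Levels between genes were compared as normalized reads per kilobase of exon, with all annotated exons of a gene joined. The order therefore depends on the annotation, and genes whose transcripts are shorter than their joined exons stand too low. In Control the order was Fos (9424 ± 2527), Atf3 (7889 ± 1681), Jun (7231 ± 1561), Fosb (6686 ± 1728), Egr1 (5662 ± 1259), Jund (4807 ± 809), Junb (3553 ± 137), Fosl1 (2963 ± 856), Ier2 (1594 ± 335) and Fosl2 (449 ± 19.7; SD, n = 3). From Fos down to Jund, neighbours differed by less than the larger of their SDs, as did Junb and Fosl1. In Sox9cKO the order was Fos (5714 ± 687), Jun (5174 ± 733), Jund (3938 ± 780.3), Atf3 (3878 ± 249), Fosb (3504 ± 438), Egr1 (3228 ± 246), Fosl1 (3101 ± 188), Junb (2751 ± 857), Ier2 (1119 ± 249) and Fosl2 (540.0 ± 128). There, Fos and Jun lay within the larger SD of each other, and so did each neighbour from Jund to Junb. By the means alone, Atf3 went from place 2 to place 4 and Jund from place 6 to place 3. Most neighbours at these places lay within the larger SD, so this change of order is not settled. By reads per gene over all 6 samples, Fosb, Egr1, Jun and Fos ranked 19, 35, 37 and 44 among the 17153 genes tested, though in Sox9cKO alone the mean of Jun was above that of Egr1. The members together took 1.34%, 0.930% and 1.21% of the gene reads in Control and 0.741%, 0.702% and 0.637% in Sox9cKO.

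Within groups, the SD of the members' log2 values ran from 0.23 for Atf3 to 0.35 for Junb, which is at the percentiles 36.8 and 60.0 of all genes tested. By level the members ranked from 19 (Fosb) to 1245 (Ier2), while the genes tested reach down to a mean of 10 normalized reads. The percentiles are therefore not against genes of like level. Atf3 and Egr1 varied more in Control, with coefficients of variation of 21.3% and 22.2% against 6.43% and 7.63% in Sox9cKO. Junb and Fosl2 varied more in Sox9cKO, with 31.2% and 23.8% against 3.86% and 4.39% in Control.

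Some features of structure were shared. Jun, Junb, Jund and Ier2 have a principal transcript of 1 exon in GENCODE M21, as do 2.76% of tested genes. The pentamer AUUUA, the core of AU-rich instability elements, was in the 3′ untranslated region of 9 members, against 66.7% of 13462 tested genes (sense strand). Fosl2 held 8 copies, Fos and Jun 4 each, Atf3 3 and Ier2 0. Per kilobase the members' median was 1.80 copies, beside 1.22 over tested genes. Genes on the opposite strand with values in the table overlap Fosl1 (Ccdc85b), Jun (Junos), Junb (Prdx2) and Jund (Gm11175), and whether counting used the strand is not given in the sources used here. Their highest values came to 22.5%, 1.29%, 18.8% and 6.55% of the lowest value of the member they overlap. Junos, a non-coding RNA divergent from Jun, had 184, 161 and 134 in Control and 69.6, 93.6 and 83.8 in Sox9cKO, and its groups did not overlap (limma, adjusted p 0.0637, with the block 0.0420).

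Of 27 other immediate early genes, limma called 1 lower (Csrnp1) and 1 higher (Dusp1). With the block 9 were called lower and 2 higher, beside 2.99% and 5.06% of all genes. Groups did not overlap in 10 that lay lower and 2 that lay higher, beside 10.8% and 13.4% of all genes. Their median log2 fold change was -0.35, with 18 negative and 9 positive values. Csrnp1, a nuclear protein gene, fell from 4693, 4761 and 5054 in Control to 3179.7, 3599 and 3003 in Sox9cKO (log2 fold change -0.57, adjusted p 0.0436 in limma), and lost its call in each of the 6 fits without 1 sample (adjusted p 0.0643 to 0.154), without the filter (0.0509) and without the intensity trend (0.118). Egr2, a relative of Egr1, had 1115, 468 and 781 in Control and 365, 236 and 309 in Sox9cKO (log2 fold change -1.31, adjusted p 0.0879 in limma and 0.00469 with the block). Arc, best known from neurons, had 1711, 862 and 1923 in Control and 726, 497 and 554 in Sox9cKO (log2 fold change -1.27, adjusted p 0.0860 in limma and 0.0116 with the block). In Egr2 and Arc, as in Fos, Fosb, Jun, Atf3, Egr1 and Ier2, Control 2 was the lowest Control sample, and without it both passed the threshold (limma, adjusted p 0.0245 and 0.0136). In the other 5 fits without 1 sample the adjusted p lay between 0.134 and 0.236 for Egr2 and between 0.126 and 0.277 for Arc.

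Dusp1 encodes a phosphatase that switches off MAP kinases. It rose from 4168, 4652 and 4256 in Control to 7905, 9005 and 7008 in Sox9cKO, with no overlap (log2 fold change 0.87, SE 0.13, adjusted p 0.0151 in limma). Without Control 1 or Control 3 the call was lost (adjusted p 0.0876 and 0.0727), as it was without the intensity trend (0.0544). Sik1, a kinase gene induced through cAMP and picked here for its value, was the other gene called higher with the block (4603, 5151 and 4735 in Control, 6548, 8445 and 7082 in Sox9cKO, adjusted p 0.0587 in limma and 0.0159 with the block).

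**Figure D4:**
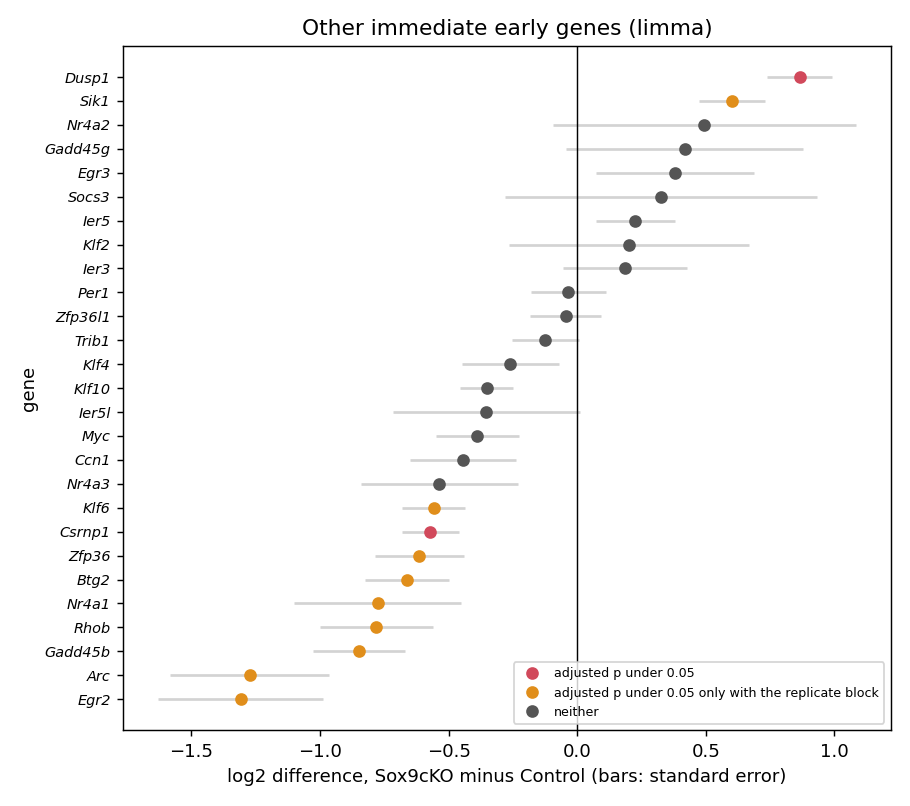
Log2 difference of Sox9cKO minus Control from limma for 27 other immediate early genes, with bars of 1 standard error and colours for the calls with and without the replicate block. Points left of 0 number 18, down to Egr2 at -1.31, and Dusp1 at 0.87 is the rightmost.

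Of 18 genes for upstream kinases and factors, limma, edgeR and DESeq2 called 0, and 1 had an unadjusted p under 0.05. Over all genes tested, 17.8% had an unadjusted p under 0.05 in limma, and 7.74% had one in the lower direction. Srf, the gene of serum response factor, read 3466, 2215 and 3582 in Control and 2584, 1883 and 1595 in Sox9cKO (log2 fold change -0.61, adjusted p 0.250 in limma). Elk3, an Ets factor gene, was called with the block alone (304, 687 and 87.6 in Control, 635, 946 and 222 in Sox9cKO, adjusted p 0.600 in limma and 0.0289 with the block), and its 6 samples had the same order as the endothelial sums. Of 11 tested genes for other leucine zipper partners, limma and edgeR called 0 and DESeq2 called 1. An unadjusted p under 0.05 in limma was reached by 3, all lower (Mafk, Maff and Atf7). Groups did not overlap in these 3, beside 10.8% of all genes in the lower direction. Negative values were found in 6 of the 11. Maf and Batf2 had the largest differences there, 1.002 and 0.71 on the log2 scale, with SEs of 0.97 and 0.82. Without Control 3 the value of Maf was 0.011, and without Control 2 it was 1.82. Of 6 repressors and turnover factors, limma, edgeR and DESeq2 called 0, and 0 had an unadjusted p under 0.05. Crem and Nab2, which encode a cAMP-responsive repressor and a repressor of Egr proteins, had log2 fold changes of -0.34 and 0.24 (limma, adjusted p 0.621 and 0.697).

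Of 15 textbook AP-1 targets listed, 13 had values and 11 passed the filter. Mmp3 and Mmp10 had no values. Mmp9 (means of 10.7 in Control and 4.63 in Sox9cKO) and Mmp13 (3.28 and 1.70) fell below the filter, and both had the lower mean in Sox9cKO. The 11 tested targets had mostly positive values, 10 of them, with a median log2 fold change of 0.68. Over all genes tested, 45.8% had negative values. In limma 3 targets were called higher and 0 lower, beside 2.03% and 0.939% of all genes, and with the block 5 higher and 1 lower, beside 5.06% and 2.99%. Plau, the urokinase gene, rose from 242, 598 and 299.6 in Control to 1244, 1349 and 1178 in Sox9cKO (log2 fold change 1.83, adjusted p 0.0277 in limma). Ccl2, a monocyte chemokine gene also driven by NF-kB, rose from 36.1, 194 and 43.8 to 624, 1785 and 854 (log2 fold change 3.84, adjusted p 0.0297 in limma and 0.0576 in edgeR). In Plau and Ccl2, all Sox9cKO samples lay above all Control samples. The calls of Plau and Ccl2 were lost in every fit without 1 sample except that without Control 2 (adjusted p up to 0.105 and 0.119), and both were lost without the intensity trend (0.0623 and 0.0629). Il6, a cytokine gene with few reads, had 10.9, 16.7 and 2.30 in Control and 57.7, 45.4 and 20.4 in Sox9cKO (limma, adjusted p 0.171, with the block 0.0231). Its Control mean of 9.98 was under 10, so it passed the filter only through its Sox9cKO values. Il6 counts among the 10 positive targets and the 5 called higher with the block, so these counts rest in part on the filter. Spp1, the osteopontin gene, was the gene called lower with the block, with 74187, 39519 and 51678 in Control and 41470.4, 30026 and 30910.5 in Sox9cKO (limma, adjusted p 0.230, with the block 0.0321). The targets have other regulators too.

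The gene nearest to the mean profile of the 10 members over the 6 samples was Dusp8, which encodes a phosphatase of JNK and p38 kinases, at a root-mean-square difference of 0.049 on the log2 scale. It read 1175, 935 and 1079.5 in Control and 826, 729 and 687 in Sox9cKO (log2 fold change -0.51, adjusted p 0.110 in limma and 0.0407 with the block). Dusp8 was picked for its likeness to the members over all 6 samples, the group difference included. Its change thus follows from the choice and is no separate result. Pank1, Mob3a, Gm49227 and Myl12a followed at 0.065 to 0.069. The members themselves lay between 0.096 (Jun) and 0.401 (Fosl2) from their own mean.

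Heat shock genes also respond to the release of cells from tissue. Of 13, limma and edgeR called 0, DESeq2 called 1, and 2 had an unadjusted p under 0.05, beside 17.8% of all genes. Negative values were found in 12, beside 45.8% of all genes, and the median log2 fold change was -0.14. Their sum was 105514, 52785 and 64148 in Control and 73658, 60228 and 50865 in Sox9cKO, so Control 1 stood apart and the groups overlapped. Hspb1 and Dnajb4 had the largest differences, 1.22 and -0.76 on the log2 scale (limma, adjusted p 0.234 and 0.164), and Dnajb4 was called with the block (adjusted p 0.0289). Without Control 1 the log2 fold change of Fos was -0.49 and that of Atf3 -0.85. In that fit limma called 0 members, while 4 had an unadjusted p under 0.05. Limma also called 0 members without Control 3, Sox9cKO 1, Sox9cKO 2 or Sox9cKO 3, so losing the call was not particular to Control 1. The part of cell handling in the members' values was not tested.

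Marker lists of other cells were summed in each sample. The 9 hepatocyte genes summed to 38626, 24873 and 29342 in Control and 61772, 47542 and 78908 in Sox9cKO, without overlap, and limma called 3 of them higher (Fgb, Tat and Apob). Most of the gap was Apob, with group means of 2712 and 22111, while Alb, Cyp2e1, Cyp3a11, Apoa1 and Ttr had groups that overlapped, and Ttr and Cyp3a11 had negative log2 fold changes. Hnf4a was higher in every Sox9cKO sample than in any Control sample (limma, adjusted p 0.131, with the block 0.0170). Kupffer cell and leukocyte genes, 7 of them in the table, summed to 1136, 1092 and 1058 in Control and 1512, 1647 and 1831 in Sox9cKO. Most of that sum was Csf1r, while Ptprc, the pan-leukocyte gene, had 37.0, 36.2 and 19.6 in Control and 16.9, 12.3 and 1.13 in Sox9cKO. Of the 6 tested, limma called 1 higher, Csf1r (adjusted p 0.0142, groups without overlap), beside 2.03% of all genes. The other 5 had negative log2 fold changes. Of these, 3 had an unadjusted p under 0.05 in limma (Ptprc, Lyz2 and Cd68), beside 7.74% of all genes in the lower direction. The 8 mesenchymal genes summed to 1178, 1108 and 540.3 in Control and 2626, 835 and 717 in Sox9cKO, with overlap, and 3 erythroid genes to at most 57.5, also with overlap. Of the endothelial, mesenchymal and erythroid genes limma called 0, and 1 endothelial gene (Vwf, chosen for its value) had an unadjusted p under 0.05 and was called higher with the block, while edgeR and DESeq2 called 0. No marker in the table was at 0 in all samples. The part of these cells in the members' values was not tested. In bulk RNA, fewer cells of a type and less RNA per cell cannot be told apart.

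**Figure D5:**
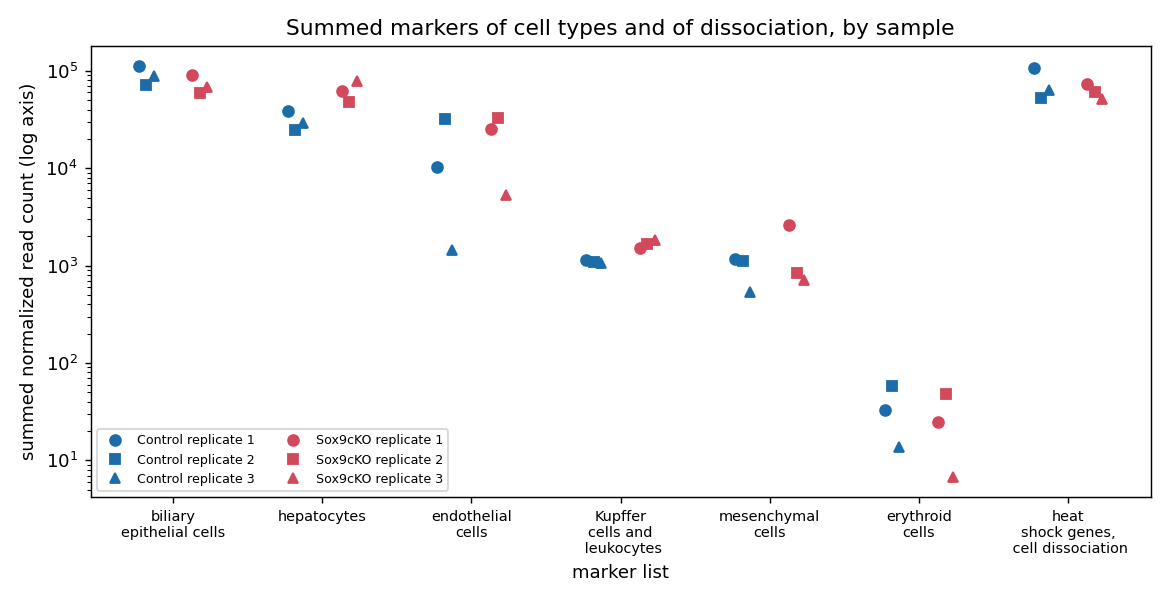
Summed normalized reads (log axis) of 6 marker lists and of 13 heat shock genes in the 3 Control (blue) and 3 Sox9cKO (red) samples, with the replicate number as the symbol. Endothelial sums range from 1459 to 32552, hepatocyte sums are higher in every Sox9cKO sample than in any Control sample, and Control 1 has the highest heat shock sum.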

How the data were processed

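RNA from 3 Control and 3 Sox9cKO samples was made into stranded total RNA libraries after rRNA depletion, with unique molecular identifiers, per the labels. The deposited values are a signal, the gene counts over 1 size factor for each sample. DESeq2 1.36.0 and the build GRCm39 are named in the submitters' processing notes. The aligner, the counting program, the annotation and the use of the identifiers are not given in the sources used here. In every sample, 100% of values were whole multiples of a smallest step (tolerance 0.001 reads), so whole reads were recovered for the count tests.

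Genes with a mean of at least 10 entered limma 3.58.1 (R 4.3.3, moderated with an intensity trend, two-sided) on log2(value + 1), with Benjamini-Hochberg adjustment over all genes tested. This called 510 of 17153 genes, 349 higher and 161 lower in Sox9cKO. Fold changes on this scale understate changes of low genes. Alternatives were the replicate block, edgeR 4.0.16 (quasi-likelihood) and DESeq2 1.42.0 on recovered reads, other pseudocounts (0.1 and 5) and filters (none, and a mean of 50), TMM and quantile scaling, a fit with no trend, and leaving out each sample. The code was tested on simulated reads.

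The pairing comes from the labels, which number the samples 1 to 3 in each group. Across genes, the deviations of same-numbered samples from the mean of their group correlated by 0.207, 0.472 and 0.542. Those of differently numbered samples correlated by -0.437 to 0.0476. Deviations from a mean cancel out within a group, so these values are not independent. What the numbers stand for is not given in the labels.

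The members and gene lists were chosen with earlier results of these data known. Named genes were the members, Sox9, the called genes of each list of related genes (at most 3, by p-value), the 2 of largest absolute change per list and the 5 nearest profiles. Epcam, Sik1, Spp1, Ptprc, Csf1r, other cell markers, Mmp3, Mmp9, Mmp10, Mmp13, Mafk, Maff, Atf7 and the genes overlapping members were named in addition. Exon lengths, AUUUA counts and overlaps came from GENCODE M21 (GRCm38) and promoters of 7 members from RefSeq (GRCm38.p6). Of the genes this rule names, 1 is not reported here.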

Additional observations from a re-analysis of the deposited data

How the results depend on the processing

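The direction of Fos, Fosb, Jun, Junb, Jund, Atf3, Egr1 and Ier2 (lower) and of Fosl2 (higher) was the same under all 17 alternatives. The median of the members stayed negative, between -0.648 and -0.372 in the fits without 1 sample. The number of members called was 1, and it became 3 with quantile normalization, with the replicate block and with edgeR with the replicate block (Atf3, Egr1 and Fosb each time), 4 with DESeq2 (Fos in addition) and 0 without the intensity trend, where 4 had an unadjusted p under 0.05. In the fits without 1 sample it ranged from 0 to 3: it was 0 in 5 of them, where 4 to 8 members had an unadjusted p under 0.05, and 3 without Control replicate 2 (Atf3, Egr1 and Fosb). Of all genes, 510 were called, and 1381 with the replicate block, 1160 with edgeR with the replicate block, 1214 with DESeq2 and 200 to 389 without 1 sample. Beside the calls given with the results, the block changed no other member's call. The fits without 1 sample had fewer samples, and the cause of the changed calls was not tested for any alternative. Signs turned for genes that were never called: Fosl1 (-0.0105 with quantile normalization, and -0.0199 to 0.327 without 1 sample, with -0.00385 without Control replicate 2), Batf2 (-0.0791 to 1.62 without 1 sample) and Nab2 (-0.000287 to 0.455 without 1 sample). Depth did not limit the members, which had at least 1227 reads in every sample.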
